A study of Ananas comosus with 78 samples.

Results

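The shoot apex of pineapple, sampled 5 days after the plants were forced with ethephon, was compared with the apex of water-treated plants of the same day. The comparison was made by the sample titles: 3 libraries of treated plants and 3 of untreated plants at the sampling that the labels number 6 and the study calls day 5, which makes 6 of the 78 libraries of the series. The ethephon group received 50 mg of ethephon in 10 ml of water in the centre of the plant, and the water group 10 ml of water alone. All plants were of cultivar PRI 73-50, which the labels call MD1 in one field and MD2 in another, and grew in the same commercial field, and their age was not given. Each library was a pool of apices from 3 plants of a field replication, with the leaf primordia still on the apex. The measurement was RNA-seq, as read pairs counted per gene, and levels are given as CPM, the count of a gene scaled to a common library total with TMM factors.

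Pineapple is a bromeliad whose flowering is forced commercially with ethephon, from which plant tissue releases ethylene. In the ethylene pathway, ACC synthase and ACC oxidase make the hormone, membrane receptors and the kinase CTR1 hold the response back in its absence, and EIN2 passes the signal on to EIN3/EIL and AP2/ERTF transcription factors. In Arabidopsis and grasses, the change of a vegetative apex to an inflorescence involves FLOWERING LOCUS T (FT), MADS-box genes of the FRUITFULL (FUL) and SOC1 type, SQUAMOSA promoter-binding-like (SPL) genes and LEAFY (LFY), while TERMINAL FLOWER (TFL) proteins hold the apex back from making a terminal flower.

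The ethephon libraries held 6973323, 5852004 and 10713172 counts, and the water libraries 5788557, 5602260 and 6088204. On log2 CPM, Pearson's r was 0.964 to 0.969 within the ethephon group, 0.971 to 0.977 within the water group and 0.920 to 0.951 between them. The meristem genes checked the tissue: Aco015873 (KNOX) had 341 to 408 CPM in the ethephon apices and 176 to 194 CPM in the water apices, against at most 4.04 CPM in any of the 30 leaf base libraries, and Aco004983 (KNOX) had at most 0.886 CPM there. Chloroplast markers (5 of 5 with counts in each group) summed to 59.3, 69.5 and 71.2 CPM with ethephon and 68.0, 69.6 and 69.8 CPM with water. Most of the sum was Aco001023, with a mean of 44.4 CPM with ethephon against 52.9 CPM with water. The means of Aco000788 (7.95 against 4.32 CPM) and PGR5 Aco010143 (3.41 against 0.228 CPM) were higher with ethephon. Those of Aco000659 (6.47 against 7.17 CPM) and Aco000683 (4.39 against 4.45 CPM) were slightly lower. The 5 annotated chloroplast genes, 4 of them among these markers, summed to 105, 128 and 124 CPM with ethephon and 161, 147 and 139 CPM with water, without overlap, and their part in the results was not tested. The 3 ethephon libraries were sequenced in 1 lane and the 3 water libraries in another, so that treatment and lane cannot be told apart in these 6 libraries. The water apices of day 6 and day 8 were run in the lane of the ethephon libraries, and the day 5 ethephon libraries were therefore also set against them. In bulk tissue, fewer cells of a type and less RNA per cell cannot be told apart.

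Of 27024 genes, 22026 had a count in these libraries and were tested. A gene was called differentially expressed (DE) at a Benjamini-Hochberg adjusted p under 0.05 in edgeR's quasi-likelihood test with a change of at least 2-fold. By this rule 1114 genes were DE, 5.06% of those tested, with 844 up-regulated by ethephon (3.83%) and 270 down-regulated (1.23%). Up-regulated genes therefore made up 75.8% of the calls, while the median log2 fold change of all genes was -0.01. DESeq2 called 923 genes (4.19%), 717 of the 844 and 204 of the 270 among them. Most changes were small, since 577 of the up-regulated and 231 of the down-regulated genes changed by a log2 fold change of 1 to 2 in size. A log2 fold change of 3 or more was found for 137 up-regulated and, in the other direction, for 13 down-regulated genes. The ethephon and water libraries did not overlap for 756 of the 844 up-regulated genes and 259 of the 270 down-regulated ones, against 16.5% of all tested genes with all ethephon libraries higher and 14.3% with all lower.

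**Figure D1:**
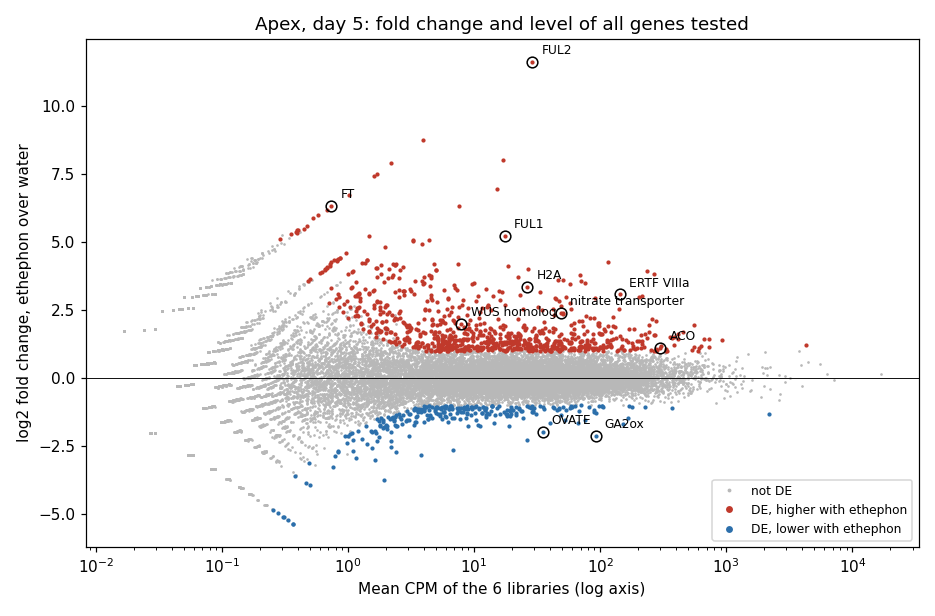
Mean CPM of the 6 libraries (x axis, log scale) against the log2 fold change of ethephon over water (y axis) for the 22026 genes tested, with the 844 up-regulated and 270 down-regulated genes in colour and genes that are not DE in grey. FUL2, which had no count in the water libraries, lies far above the other labelled genes, at a fitted value that depends on the prior count.

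The study names 277 genes by role, of which 275 were tested here. Of these, 61 were up-regulated and 11 down-regulated (26.2%, against 5.06% of all genes), and the groups did not overlap in any of the 72. The study chose these genes on the same samples, so that their number and direction are not independent evidence. This holds for the counts of each list below as well. In the fits against the same-lane water apices of day 6 and day 8, 52 and 56 of the 72 were DE in the same direction, and all 72 kept their sign in both. Of the 72, 45 were DE in each of the 6 fits that left out 1 library.

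The MADS-box list held the listed genes with the smallest adjusted p, both of them FUL genes. Aco012428 (FUL2, linkage group 1, 2127109 to 2132551) is a homolog of FRUITFULL, a regulator that in Arabidopsis and cereals marks the inflorescence apex. It had 47.8, 63.5 and 62.5 CPM in the ethephon libraries and no count in the 3 water libraries. Against a floor of 3 counts per water library it was at least 108-fold higher (adjusted p = 3.02e-14). The second homolog, Aco004839 (FUL1, linkage group 7, 217862 to 228880), had 26.4, 33.6 and 42.2 CPM with ethephon against 0.329, 1.07 and 1.30 CPM with water. Its log2 fold change was 5.22 ± 0.305 (SE, n = 3 each; edgeR adjusted p = 1.31e-11), and its exons overlap Aco004840, whose reads can be counted with it. Both FUL genes were thus close to silent in every water apex and clearly expressed in every ethephon apex.

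A further 4 MADS-box genes were up-regulated, which made 6 of the 15 tested (40%, against 5.06% of all genes DE), with none down-regulated. Aco017563 (SEP4), whose Arabidopsis homolog acts in floral organ identity, had 0.438, 0.884 and 0.801 CPM with ethephon and no count with water, and was at least 1.33-fold higher (adjusted p = 0.0233). The call held with the day 8 water apices but not with those of day 6, and in only 1 of the 6 fits that left out a library, the one without ethephon library 1. Aco015104 (AGAMOUS-like 14) had 66.6, 69.5 and 74.3 CPM with ethephon against 23.2, 21.2 and 27.7 CPM with water, a log2 fold change of 1.54 ± 0.154. Aco030656, which the study names AGAMOUS-like 31, also rose, with 18.8, 27.1 and 20.6 CPM with ethephon against 7.08, 5.87 and 6.68 CPM with water. The Arabidopsis gene of that name is related to the floral repressor FLOWERING LOCUS C, which the study holds to be possibly lost from pineapple. Aco019039 (CAULIFLOWER A-like) had 16.6, 28.8 and 11.6 CPM with ethephon and 9.55, 6.41 and 6.36 CPM with water, so that its ethephon libraries spread widely but stayed above all water libraries. The call was lost without ethephon library 2 (log2 fold change 0.90) and without water library 2 (adjusted p = 0.0532).

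The SOC1 and SVP homologs did not reach the limits. SOC1 integrates flowering signals in Arabidopsis, and Aco015492 (SOC1c) had 41.5, 48.3 and 48.5 CPM with ethephon against 64.5, 60.5 and 71.6 CPM with water. The groups were apart, but the log2 fold change of -0.51 ± 0.144 was under 2-fold (adjusted p = 0.0150). The other 4 SOC1 homologs had log2 fold changes of -0.38 (Aco030142) to 0.20 (Aco016643), and the SVP homologs, repressors of flowering in Arabidopsis, of -0.23 (Aco002729) to 0.19 (Aco004028), all with adjusted p of 0.24 or more.

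In the flowering time list, 5 of 20 genes were up-regulated and none down-regulated (25%, against 5.06% of all genes DE). FT encodes the mobile flowering signal that in Arabidopsis is made in leaves. The homolog Aco010683 (linkage group 10, 2719710 to 2722067) had 1.61, 1.41 and 1.40 CPM in the ethephon apices, from 11, 8 and 14 counts, and no count in the water apices. It was at least 2.76-fold higher (adjusted p = 0.00124). Its neighbour Aco010684 (FT, 2728866 to 2731384 on the same linkage group) had 3, 2 and 2 counts with ethephon and none with water, and was not DE (adjusted p = 0.142). Pairs that match both copies were counted for both, so that these low counts cannot be assigned to one FT gene with certainty.

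Of the TERMINAL FLOWER homologs, Aco031443 (linkage group 1, 18079728 to 18081228) was up-regulated with 7, 8 and 18 counts in the ethephon libraries against 1, 0 and 0 in the water libraries. This was a ratio of 26.2, with a 95% counting interval of 4.38 to 1064 (adjusted p = 0.00431). Aco016718 (TFL) had 21, 2 and 13 counts with ethephon against 2, 4 and 2 with water. Its groups overlapped through ethephon library 2, and it was not DE (adjusted p = 0.117), although it was DE without that library (adjusted p = 0.0297). It was DE in the fits with day 6 and day 8 water, whose log2 fold changes were 4.77 and 2.72, against 1.77 here. FT and TFL were thus expressed at the same time in the ethephon apices, both from few counts.

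The remaining flowering time calls were smaller. Aco006513 (CO-like), a CONSTANS-like gene of the photoperiod pathway whose exons overlap Aco006514, had 106, 83.8 and 82.8 CPM with ethephon against 34.9, 42.0 and 54.8 CPM with water (log2 fold change 1.04 ± 0.163). Without ethephon library 1 or water library 1, its log2 fold change was 0.92 or 0.89, and without water library 2 it was 1.00, just under the limit. The EARLY FLOWERING-like genes Aco009476 and Aco030106 had log2 fold changes of 1.39 ± 0.306 and 1.29 ± 0.361. Aco030106 lost the call without ethephon library 2 or water library 3 (adjusted p = 0.068 and 0.0736). None of the 3 was DE against the same-lane water apices of day 6 or day 8, where their log2 fold changes were 0.18 to 0.77. GIGANTEA-like Aco014347 (-0.38) and the CO-like gene Aco003091 (-0.28) were not DE.

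Genes of floral meristem identity gave 2 calls among 12 tested (16.7%, against 5.06% of all genes DE), both upward. Aco006706 (AP2, linkage group 1, 22542981 to 22544495), an APETALA2-like gene of the class that specifies floral organs in Arabidopsis, had 55.6, 54.3 and 55.1 CPM with ethephon against 14, 23.3 and 22.3 CPM with water. Its log2 fold change was 1.46 ± 0.174 (adjusted p = 1.18e-06). Aco008265 (SPL8), one of the SPL genes, which act in the age pathway and in reproductive development, had 10.1, 9.55 and 9.21 CPM with ethephon against 4.61, 2.14 and 2.77 CPM with water (log2 fold change 1.58 ± 0.293). LFY, the floral meristem regulator Aco019058, was not DE on day 5, with 8.03, 11.7 and 11.9 CPM with ethephon and 9.22, 5.52 and 8.64 CPM with water. Its log2 fold change was 0.43 ± 0.246, and the groups overlapped. A further SPL gene, Aco012822, had 22.1, 25.1 and 28.5 CPM with ethephon and 22.2, 18.5 and 20.7 CPM with water, and was not DE either.

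**Figure D2:**
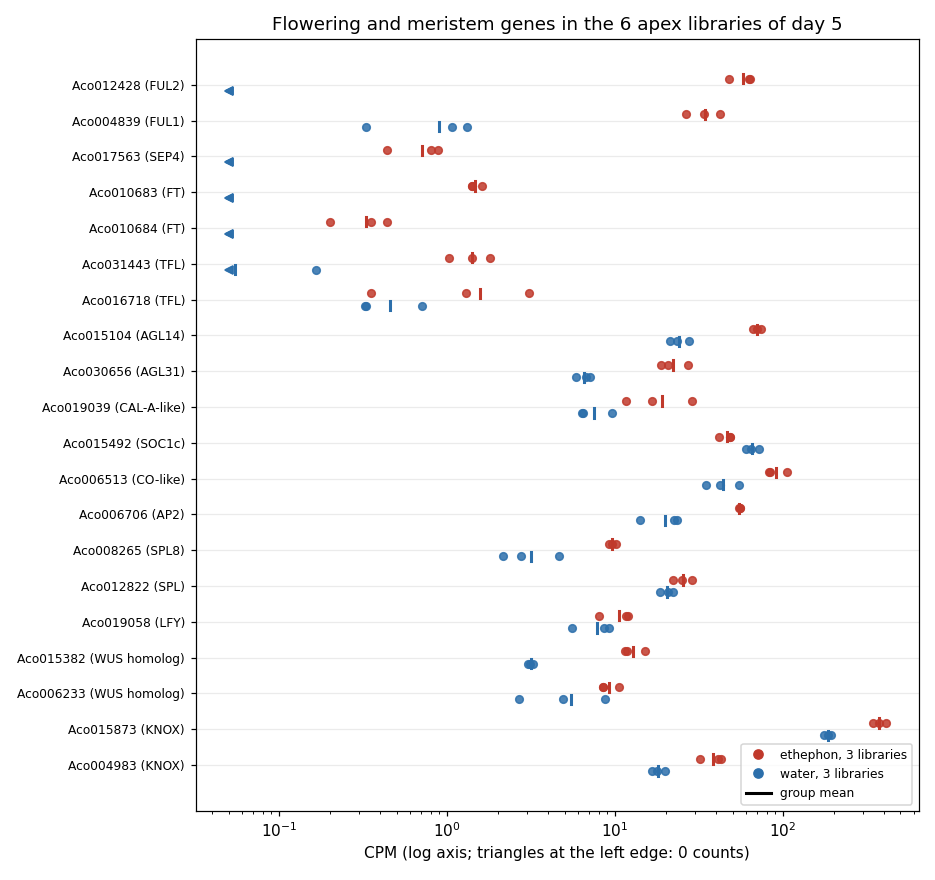
CPM (x axis, log scale) of flowering and meristem genes in the 3 ethephon and 3 water libraries of day 5, with group means as bars and libraries without a count as triangles at the left edge. FUL2 and FT had no count in any water library, while the LFY libraries of both groups intermingle between 5.52 and 11.9 CPM.

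Meristem and homeobox genes were up-regulated in 5 of 12 cases and down-regulated in none (41.7%, against 5.06% of all genes DE). KNOTTED-1-like (KNOX) proteins keep meristem cells undifferentiated. Aco015873 (KNOX) had 341, 374 and 408 CPM with ethephon against 184, 194 and 176 CPM with water, a log2 fold change of 1.01 ± 0.137 that lies just at the limit. It was 0.94 with the day 8 water apices, and 0.95, 0.99 and 0.97 without ethephon library 3, water library 1 and water library 3. Aco004983 (KNOX) had 42.5, 41.0 and 32.0 CPM with ethephon against 16.6, 19.8 and 17.8 CPM with water (log2 fold change 1.08 ± 0.168). Among the relatives of WUSCHEL, the gene that maintains stem cells in Arabidopsis, Aco015382 (linkage group 23, 159566 to 160802) changed most. It had 11.4, 15 and 11.8 CPM with ethephon against 3.13, 3.03 and 3.26 CPM with water, a 4.01-fold difference (log2 fold change 2.00 ± 0.260, adjusted p = 4.40e-06). The other homolog, Aco006233, had 10.5, 8.49 and 8.51 CPM with ethephon against 8.72, 2.67 and 4.89 CPM with water, and water library 1 lay within the ethephon range (adjusted p = 0.103). Without that library, or with either same-lane water group, it was DE. WOX gene Aco023084 (1.15) and the homeodomain zinc finger gene Aco014382 (1.69) also rose, but Aco014382 lost the call in 5 of the 6 fits that left out a library (adjusted p = 0.0628 to 0.183). A pair of genes of this list had adjusted p under 0.05 with less than 2-fold lower levels, WOX Aco008700 (-0.52) and HD-Zip Aco012846 (-0.51).

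Of 16 genes of ethylene synthesis, reception and signalling, 1 was DE on day 5, against 5.06% of all genes. It was 1 of 6 genes of synthesis and was up-regulated. Aco001358, an ACC oxidase (linkage group 2, 12013620 to 12016290), had 353, 422 and 457 CPM with ethephon against 97.3, 206 and 264 CPM with water, a log2 fold change of 1.11 ± 0.217 (adjusted p = 0.000669). Without water library 1 the log2 fold change was 0.78 and the call was lost, and its exons overlap Aco001359. Another ACC oxidase, Aco015240, averaged 234 CPM with ethephon and 351 CPM with water (log2 fold change -0.59). For ACC synthase, Aco015517 (ACS1) had 202, 129 and 169 CPM with ethephon and 79.3, 188 and 253 CPM with water. The water libraries alone spanned the whole range of the ethephon libraries, and the log2 fold change was -0.07 ± 0.240. Aco000276 (ACS2), with 2.48 to 3.5 CPM with ethephon and 1.65 to 3.75 CPM with water, was not DE.

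None of the 5 ethylene receptor genes and none of the 5 genes of signal transduction was DE by edgeR or by DESeq2, and 1 and 2 of them had an unadjusted p under 0.05 in edgeR, as did 27.8% of all genes. The receptors ranged in log2 fold change between -0.17 (Aco002499) and 0.39 (Aco010452). The kinase Aco007771 (CTR1) had 116, 87.9 and 94.4 CPM with ethephon and 131, 119 and 104 CPM with water. Aco005120 (EIN2) had 51.3, 40.7 and 48.1 CPM with ethephon and 54.5, 61.9 and 55.4 CPM with water, so that the groups did not overlap, with a log2 fold change of -0.30 ± 0.145. The EIN3/EIL transcription factor gene Aco017871 was the farthest from the water level, with 307, 370 and 379 CPM with ethephon against 473, 612 and 616 CPM with water (log2 fold change -0.69 ± 0.147, adjusted p = 0.00154). It did not reach 2-fold, except with day 8 water (-1.11). The other genes of this step, Aco001697 and Aco015335, had log2 fold changes of 0.09 and 0.41.

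The AP2/ERTF family holds the transcription factors named for their response to ethylene. Of the 38 listed genes of this family, 11 were up-regulated and none down-regulated (28.9%, against 5.06% of all genes DE). The median log2 fold change over the list was 0.51. The study names most members of this family for being DE in its own comparisons of these samples. It names the ethylene receptor and signalling genes whether DE or not. The share of calls in the AP2/ERTF list therefore cannot be set against the shares in those lists. Group VIIIa, which in Arabidopsis holds repressors with an EAR motif, had 3 of the 11 calls. Aco006567 (linkage group 14, 1314823 to 1315485) had 169, 229 and 376 CPM with ethephon against 28.1, 33.1 and 29.8 CPM with water, an 8.47-fold difference (log2 fold change 3.08 ± 0.210). Aco010545 (linkage group 7, 13023056 to 13023373) had 78.1, 95.3 and 114 CPM with ethephon against 10.0, 11.2 and 14.8 CPM with water, a log2 fold change of 2.98 ± 0.182. The third group VIIIa gene called, Aco008323, rose less, with a log2 fold change of 1.73 ± 0.223. In all 3 genes, every ethephon library was above every water library, and the deepest library, ethephon 3, had the highest CPM.

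Group IX genes followed. Aco011669 (group IXa, linkage group 8, 12341412 to 12342278) had 83.4, 158 and 141 CPM with ethephon against 28.8, 23.3 and 26.9 CPM with water (log2 fold change 2.27 ± 0.188, adjusted p = 4.16e-09). Aco012858 (group IXb) had 8.91, 11.5 and 14.4 CPM with ethephon against 1.98, 1.42 and 2.28 CPM with water, and was not DE with the day 6 water apices. Group VII factors are tied to low oxygen in Arabidopsis. In this group, Aco002699 had 4.67, 4.95 and 18 CPM with ethephon against 0.823, 0.178 and 0.489 CPM with water, and ethephon library 3 stood above the other two. Aco001844 of the same group had a log2 fold change of 1.76 ± 0.247. In group Ib, Aco002824 (435, 566 and 838 CPM with ethephon against 182, 239 and 246 CPM with water) and Aco001190 (64.3, 70.7 and 106 CPM against 32.3, 31.1 and 34.1 CPM with water) rose by log2 fold changes of 1.46 and 1.31. Aco002824 averaged 613 CPM with ethephon, against 276 CPM in the day 6 and 320 CPM in the day 8 water apices. Low counts underlay Aco022651, with 4.53, 2.65 and 2.4 CPM with ethephon against 0, 0.534 and 0.163 CPM with water, and group IIIc gene Aco022517, with 0.876, 1.41 and 4.30 CPM with ethephon against 0, 0.534 and 0.326 CPM with water. The exons of Aco022517 overlap Aco022516, and the gene lost the call without ethephon library 3 (log2 fold change 1.93, adjusted p = 0.212), water library 1 (adjusted p = 0.0534) or water library 2 (adjusted p = 0.0542).

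Gibberellin genes moved in both directions, with 4 up-regulated and 3 down-regulated of 12 tested (58.3%, against 5.06% of all genes DE). Aco007347 (GA2ox, linkage group 23, 3816763 to 3823287), a gibberellin 2-oxidase of the class that inactivates the hormone, had the smallest adjusted p of the down-regulated listed genes. It had 30.1, 39.6 and 33.9 CPM with ethephon against 152, 138 and 159 CPM with water, a 4.35-fold lower level (log2 fold change -2.12 ± 0.147, adjusted p = 2.22e-10). Aco002580, labelled GA20ox in the study's main text, a class that makes gibberellin precursors, was also lower, with 0.146, 0.177 and 0.30 CPM with ethephon against 0.823, 2.14 and 1.47 CPM with water. It was not DE with the day 6 water apices, nor without ethephon library 1, water library 2 or water library 3 (adjusted p = 0.0546 to 0.136). Both oxidase genes fell. The study's supplement calls Aco002580 a gibberellin 2-oxidase instead, so that its role is not settled here. The gibberellin-regulated genes Aco000979 and Aco025093 rose together, the first with 151, 207 and 171 CPM with ethephon against 75.7, 58.4 and 66.0 CPM with water and the other with 139, 156 and 152 CPM with ethephon against 70.4, 55.9 and 63.4 CPM with water. Their mean levels were similar in all apex groups. Pairs that match both genes were counted for both, and how far the genes share reads was not tested. Among the DELLA genes, which encode growth repressors that gibberellin removes, Aco003635 was down-regulated (0.730, 0.707 and 1.00 CPM with ethephon against 2.47, 2.67 and 3.26 CPM with water). The DELLA-domain gene Aco031731 was up-regulated (2.92, 1.41 and 1.90 CPM with ethephon against 0.494, 0.178 and 0.326 CPM with water). Aco003635 and the SCARECROW-like gene Aco002115, up-regulated with a log2 fold change of 2.42 ± 0.788, were not DE against either same-lane water group. The call was lost without water library 2 or 3 for Aco003635 (adjusted p = 0.0611 and 0.0829), without water library 2 for Aco031731 (adjusted p = 0.0699), and without ethephon library 3 or any water library for Aco002115 (adjusted p = 0.0772 to 0.215).

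The other hormone lists together had 6 of 39 genes DE, against 5.06% of all genes. Abscisic acid genes had 3 of 9 down-regulated and none up-regulated. These were the PYR1-like receptor genes Aco005513 (11.1, 12.6 and 11.4 CPM with ethephon against 29.8, 21.9 and 29.0 CPM with water) and Aco018101 (0.584, 1.59 and 1.2 CPM with ethephon against 4.28, 3.03 and 3.91 CPM with water), together with Aco009346, a transcription factor gene of the response (18.4, 32.5 and 32.9 CPM with ethephon against 92.7, 69.6 and 49.9 CPM with water). All 3 were also DE against both same-lane water groups. In the cytokinin list, the response regulator Aco010350 was the one call among 9, with 6.43, 5.48 and 8.71 CPM with ethephon against 13, 18.9 and 21.7 CPM with water. Auxin transport had 1 call of 10, Aco031846 (ABCG32), listed by the study as an influx transporter (log2 fold change 1.29 ± 0.181). It averaged 27.1 CPM with ethephon, against 17.4 CPM in the day 6 and 12.6 CPM in the day 8 water apices. Auxin response had 1 of 6, the dormancy-associated gene Aco002473 (-1.06 ± 0.225, and -0.84 without ethephon library 1), whose exons overlap Aco002472. None of the 5 jasmonate genes was DE by edgeR or DESeq2, with 3 at an unadjusted p under 0.05, and their log2 fold changes were -0.12 (Aco012414) to 0.66 (Aco009689).

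Histone and HAP3 genes were up-regulated in 4 of 15 cases (26.7%, against 5.06% of all genes DE), with a median log2 fold change of 0.59. The H2A gene Aco014218 had 25.6, 37.7 and 81.4 CPM with ethephon against 6.42, 2.49 and 5.22 CPM with water, a log2 fold change of 3.35 ± 0.330, and its ethephon libraries differed by over 3-fold among themselves. The HAP3/NF-YB gene Aco003152, encoding a subunit of the CCAAT-binding factor, had 237, 368 and 327 CPM with ethephon against 142, 106 and 111 CPM with water. Aco003157 on the same linkage group rose with it (log2 fold change 1.07 ± 0.154, and 0.93 without ethephon library 2). The linker histone genes Aco031193, Aco000204 and Aco001050 had log2 fold changes of 1.32, 0.75 and 0.66, and the first of them was DE. It lost the call without ethephon library 3 (log2 fold change 0.87, adjusted p = 0.237), water library 2 (adjusted p = 0.0987) or water library 3 (adjusted p = 0.0701). By contrast, none of 15 chromatin genes was DE by edgeR or DESeq2, with 3 at an unadjusted p under 0.05, and their log2 fold changes lay between -0.68 and 0.50. The 3 listed cell cycle genes were not DE by either tool, with 2 at an unadjusted p under 0.05 and log2 fold changes of -0.44 to -0.26. Of 6 growth-regulating factor genes, which promote cell proliferation in leaves, Aco020046 rose, with 20.3, 19.8 and 19.9 CPM with ethephon against 8.56, 6.59 and 8.48 CPM with water.

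Sugar genes had 6 of 15 up-regulated and 1 down-regulated (46.7%, against 5.06% of all genes DE). Aco017378, a sucrose phosphate synthase gene, had 2.48, 2.83 and 2.30 CPM with ethephon against 0.658, 0.712 and 0.489 CPM with water (log2 fold change 1.99 ± 0.544; adjusted p = 0.0539 without water library 3). The bidirectional sugar transporter genes went apart: Aco005793 had 4.53, 4.95 and 5.2 CPM with ethephon against 0.823, 1.42 and 1.47 CPM with water, while Aco011302 had 16.6, 23.3 and 26.5 CPM with ethephon against 31.8, 49.3 and 54.3 CPM with water. The change of Aco011302 was under 2-fold without ethephon library 1 (-0.85), water library 2 (-0.98) or water library 3 (-0.88). Trehalose-6-phosphate is a sugar signal in flowering of Arabidopsis. Its synthase gene Aco012107 (TPS) had 301, 198 and 416 CPM with ethephon against 85.9, 170 and 126 CPM with water, and its phosphatase gene Aco001192 (TPP) had 7.16, 6.19 and 7.01 CPM with ethephon against 1.98, 4.81 and 3.26 CPM with water. The synthase gene was under 2-fold without ethephon library 3 (0.97), and the phosphatase gene lost the call without ethephon library 1, water library 1 or water library 3. These genes and the monosaccharide transporter gene Aco003836 were not DE against either same-lane water group, and Aco003836 also lost the call without ethephon library 2 (log2 fold change 0.86), water library 1 (0.97) or water library 2 (adjusted p = 0.0507). Another monosaccharide transporter gene, Aco010302, had 10.2, 9.9 and 10.7 CPM with ethephon against 4.11, 6.05 and 4.73 CPM with water (log2 fold change 1.05 ± 0.25, and 0.91 without water library 1). A nitrate transporter gene, Aco015264, showed the clearer change among the transporters, with 78.4, 73.4 and 93.5 CPM with ethephon against 7.57, 17.8 and 21.2 CPM with water (log2 fold change 2.39 ± 0.223).

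In the list of stress and late embryogenesis abundant (LEA) genes, 6 of 18 were up-regulated and none down-regulated (33.3%, against 5.06% of all genes DE). Aco002475 (LEA) had 27.2, 27.2 and 29.8 CPM with ethephon against 1.81, 5.70 and 3.91 CPM with water, a log2 fold change of 2.89 ± 0.252. Aco010143 (PGR5), a gene of photosynthetic electron flow that was also one of the chloroplast markers, had 1.46, 4.07 and 4.70 CPM with ethephon against 0.165, 0.356 and 0.163 CPM with water. The early nodulin-like genes Aco022294 and Aco007544 rose by log2 fold changes of 1.35 and 1.30, and the second was not DE against either same-lane water group. Aco005573, a heat stress transcription factor gene, had no count with water and was at least 1.09-fold higher, but lost the call without ethephon library 3 or any water library. Aco001681, a stress-responsive gene whose exons overlap Aco001680, had 2.48, 1.77 and 1.00 CPM with ethephon against 0, 0.356 and 0.326 CPM with water (log2 fold change 2.83 ± 0.808). Its call was lost without ethephon library 1, water library 1 or water library 2 (adjusted p = 0.0684 to 0.0828).

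Among the OVATE and LSH genes, Aco011137 (OVATE) had 13.7, 11.8 and 17 CPM with ethephon against 47.7, 60.9 and 58.7 CPM with water, a log2 fold change of -1.96 ± 0.171. Aco008960 (LSH), of a family that acts at organ boundaries in Arabidopsis and rice, had 68.2, 73.9 and 66.2 CPM with ethephon against 22.1, 30.6 and 27.5 CPM with water. A second OVATE gene, Aco029040, had 9.78, 13.4 and 14.6 CPM with ethephon against 5.1, 5.7 and 7.5 CPM with water (log2 fold change 1.04 ± 0.242), and was under 2-fold in 4 of the 6 fits that left out a library. Of 16 kinase and phosphatase genes, 3 rose and 1 fell (25%, against 5.06% of all genes DE). The kinase gene Aco009459 was the most even of them, with 85.6, 98.1 and 116 CPM with ethephon against 24.4, 24.4 and 24.6 CPM with water (log2 fold change 2.03 ± 0.154). The kinase gene Aco024439 had 24.7, 27.4 and 32.8 CPM with ethephon against 5.27, 11.7 and 11.2 CPM with water, and the protein phosphatase 2C gene Aco000522 had 35, 23.9 and 46.3 CPM with ethephon against 10.5, 14.1 and 10.3 CPM with water. Their log2 fold changes were 1.59 ± 0.224 and 1.6 ± 0.21. The kinase gene Aco008045 fell, with 4.24, 3.36 and 5.4 CPM with ethephon against 8.72, 8.9 and 9.13 CPM with water (log2 fold change -1.02 ± 0.267), and was under 2-fold without ethephon library 1 (-0.98) or ethephon library 2 (-0.88). Its mean was 4.33 CPM with ethephon, against 10.0 CPM in the day 6 and 6.06 CPM in the day 8 water apices. Protein turnover genes had 2 of 8 up-regulated, of which the RAB acceptor gene Aco001601 (log2 fold change 1.15 ± 0.153) was DE against both same-lane water groups. The other, the RING finger gene Aco012901, had 1.9, 2.48 and 2.4 CPM with ethephon against 0.823, 0.534 and 0.652 CPM with water (log2 fold change 1.72 ± 0.553), and lost the call in 5 of the 6 fits that left out a library (adjusted p = 0.0645 to 0.123).

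**Figure D3:**
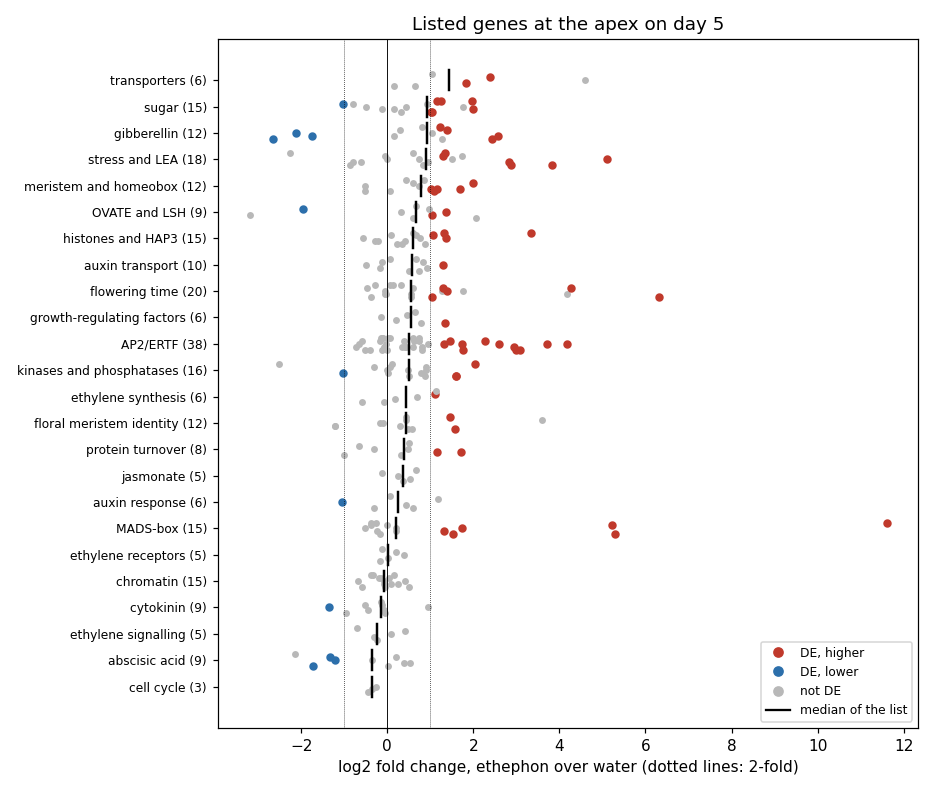
log2 fold change of ethephon over water on day 5 (x axis) for each tested gene of the study's lists (rows, with the number tested), coloured by up-regulated, down-regulated and not DE, with the median of each list as a bar. The ethylene receptor, ethylene signalling, jasmonate, chromatin and cell cycle lists have no DE gene, while 11 of 38 AP2/ERTF genes lie to the right of the 2-fold line in colour.

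An annotation of the study was used for 858 genes with the lowest ID numbers, some of them also in the lists, and 849 of them were tested. Of these, 33 were up-regulated and 11 down-regulated (5.18%, against 5.06% of all genes), so that the annotated genes as a whole were close to the background. Among the risen genes with the smallest adjusted p, Aco000756 (beta glucosidase 17) had 969, 820 and 841 CPM with ethephon against 219, 244 and 205 CPM with water, and Aco000669 (ATP binding protein) had 18.7, 23.2 and 33.3 CPM with ethephon against 3.29, 2.49 and 3.42 CPM with water. Aco000358, a WRKY transcription factor gene of a family tied to defence, had 43.7, 52.2 and 76.9 CPM with ethephon against 18.6, 12.6 and 9.94 CPM with water, but was not DE with the day 6 water apices. Aco000748 (fatty acid desaturase 2) and Aco000783 (an A20/AN1 zinc finger stress gene) rose by log2 fold changes of 1.36 and 1.57. Of the fallen genes, Aco000611 (subunit C-1 of nuclear transcription factor Y) had 9.93, 8.13 and 7.81 CPM with ethephon against 31.3, 29.0 and 26.7 CPM with water (log2 fold change -1.76 ± 0.184). The other 5 were Aco000280 (uncharacterized), Aco000177 (protein kinase 2B), Aco000480 (phosphomethylpyrimidine synthase), Aco000289 (long-chain fatty acid CoA ligase) and Aco000771 (protein phosphatase 2C), with log2 fold changes of -1.32, -1.28, -1.09, -1.05 and -1.68. Aco000480 was under 2-fold without ethephon library 2 (-0.90) or water library 1 (-0.89), Aco000289 without ethephon library 1 (-0.91) or water library 1 (-0.83), and Aco000771 lost the call without water library 2 (adjusted p = 0.12). By keyword, 8 of 100 annotated transcription factor genes were up-regulated and 1 was down-regulated, 1 of 18 ribosomal protein genes and 1 of 24 pentatricopeptide repeat genes were up-regulated, and of 39 protein kinase genes 4 rose and 1 fell. None of the 7 cell wall, 9 cell cycle, 4 heat shock and 5 chloroplast genes was DE by edgeR or DESeq2, with 2, 4, 1 and 2 at an unadjusted p under 0.05.

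Genes without a name held some of the strongest changes. Aco006759 (linkage group 1, 22141019 to 22143724), whose exons overlap Aco006760, had 30.5, 26.3 and 33.4 CPM with ethephon against 0.165, 0.178 and 0.326 CPM with water (adjusted p = 2.10e-13). Aco004356 had 456, 620 and 425 CPM with ethephon against 19.4, 44.9 and 41.9 CPM with water. In the leaf base libraries this gene was far higher, with 20156 to 51578 CPM with ethephon and 13842 to 39157 CPM with water. How much leaf tissue contributed to its level in the apices was not tested. In the other direction, Aco002510 had 9.78, 7.25 and 10.0 CPM with ethephon against 39.2, 50.4 and 42.5 CPM with water, and Aco010978 had 75.5, 60.8 and 79.9 CPM with ethephon against 170, 282 and 236 CPM with water. In the same-lane water apices, Aco010978 averaged 136 CPM (SD 50.2) on day 6 and 294 CPM (SD 42.1) on day 8. Its ethephon mean on day 5 was 72.1 CPM, which is less than 2-fold below the day 6 water mean.

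A group of up-regulated genes rested on 1 library. It was chosen after its values were seen: in 91 of the 844 genes, ethephon library 2 was at least 2 times as high as both other ethephon libraries, against 12 genes for library 1 and 28 for library 3. Of these 91 genes, 66 lie on scaffolds that are not placed on any of the 25 linkage groups. Their summed level was 965, 6361 and 407 CPM in the ethephon libraries and 277, 295 and 237 CPM in the water libraries. In the other 72 libraries of the series it ranged from 197 to 7888 CPM with a median of 535 CPM. The 5 highest of these 72 were all leaf base libraries, and the 1 above ethephon library 2 came from water-treated plants. The groups overlapped in 43 of the 91 genes, and 23 of the 91 were still DE without ethephon library 2, where their median log2 fold change was 1.38 against 3.28 with it. They made up 61 of the 137 up-regulated genes above a log2 fold change of 3, and only 74 genes were above it without that library. Of the 61 up-regulated listed genes, 1 belonged to the group, the MATE efflux gene Aco000270 with 1.61, 5.48 and 2.30 CPM with ethephon against 0.658, 0.712 and 1.14 CPM with water. It lost the call without ethephon library 2, water library 1 or water library 2 (adjusted p = 0.085 to 0.214). Without ethephon library 2, 771 genes were up-regulated, 693 of them among the 844.

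**Figure D4:**
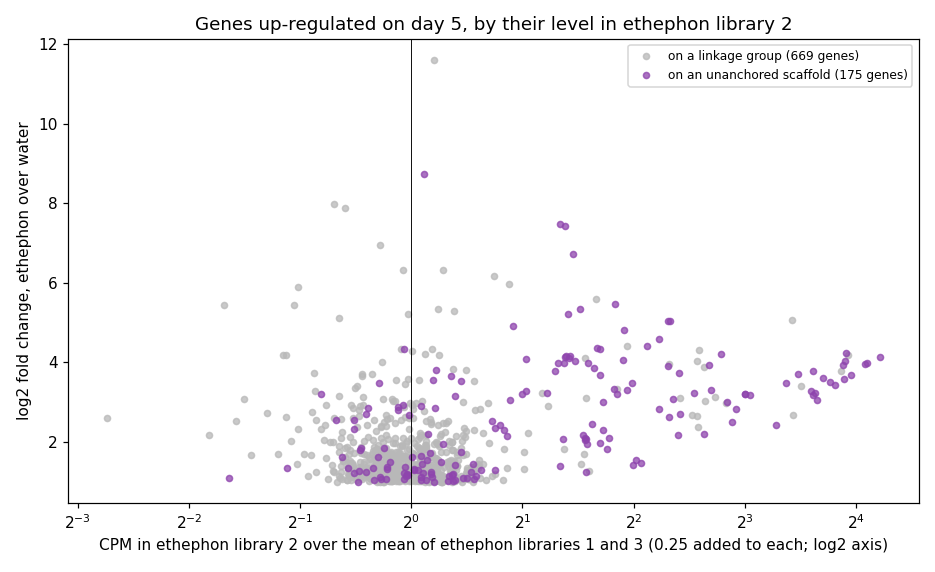
CPM in ethephon library 2 over the mean of ethephon libraries 1 and 3 (x axis, log2 scale) against the log2 fold change of ethephon over water (y axis) for the 844 up-regulated genes, split into genes on linkage groups and on unplaced scaffolds. The genes at the right, far above a ratio of 1, are mostly on unplaced scaffolds, as 66 of the 91 with library 2 apart were.

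Unplaced scaffolds had more up-regulated genes than the linkage groups, 175 of 2093 tested (8.36%) against 669 of 19933 (3.36%). Of these 175 genes, 66 belonged to the group of 91 genes described above, in which a single ethephon library stood apart. Part of the excess on unplaced scaffolds therefore rested on that library. Scaffold 357 held 21 up-regulated genes of 32 tested, 4 of them in that group. Scaffold 196 held 18 of 55, with 14 in that group. With genes of the linkage groups alone in the fit, 698 were up-regulated and 272 down-regulated.

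The ethephon effect on day 5 was then set beside those of day 4 and day 6, each against its own water apices. The ethephon libraries of day 4 and of day 6 were each spread over several flow cells, while those of day 5 shared 1 lane. The water apices of day 4 were in the lane of the day 5 water libraries, and those of day 6 in that of the day 5 ethephon libraries. Changes of day and of lane therefore cannot be told apart in these comparisons. On day 4, 768 genes were up-regulated (3.53%) and 462 down-regulated (2.12%), while day 6 had 759 up-regulated genes (3.46%) and 568 down-regulated ones (2.59%). The genes up-regulated on both day 4 and day 5 numbered 368, 43.6% of the day 5 list and 47.9% of the day 4 list, and those down-regulated on both numbered 111, 41.1% of the day 5 list and 24% of that of day 4. With day 6, day 5 shared 352 up-regulated genes (41.7% and 46.4% of the lists) and 130 down-regulated ones (48.1% and 22.9%). On all of days 4, 5 and 6, 228 genes were up-regulated and 73 down-regulated. Of the 72 listed genes that were DE on day 5, 46 were DE in the same direction on day 4, 41 on day 6 and 29 on both, none was DE in the opposite direction, and 14 were DE on neither day. In the leaf bases of day 4, 309 genes were up-regulated (1.4%) and 492 down-regulated (2.23%), and 118 of the 844 genes that rose at the apex on day 5 were lower with ethephon, while 41 were higher. The ethephon leaf bases of day 4 were run in the lane of the day 5 water apices, and their water controls in another lane. Tissue, day and lane therefore cannot be told apart in this comparison.

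Over the time course, the flowering genes differed in where day 5 fell. FUL2 averaged 1.44, 8.47, 18.7, 35.6, 49.5, 57.9, 86.0 and 106 CPM in the ethephon apices over the 8 samplings in order of time. In the water apices it averaged 3.63 CPM (SD 4.20) at 6 h, above the ethephon mean, and 0.919 and 0.465 CPM on days 1 and 2. It was at 0 CPM there on days 3 to 5 and averaged 0.215 CPM on days 6 and 8. FT (Aco010683) had no count with ethephon up to day 2 and averaged 0.168, 1.30, 1.47, 5.53 and 42.3 CPM on the following 5 samplings, of which day 5 is the third, so that day 5 lay before its highest mean. GA2ox (Aco007347) averaged 36.6 ± 7.5, 34.5 ± 4.8 and 41.2 ± 4.1 CPM on days 4, 5 and 6 with ethephon and 177 ± 31, 150 ± 11 and 162 ± 32 CPM with water (SD, n = 3 each).

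The size of the ethephon effect differed between day 5 and day 4 for 140 of 22580 genes (0.62%) in the interaction test, with 50 more positive (0.221%) and 90 more negative (0.399%) on day 5. Between day 5 and day 6 it differed for 56 of 22670 genes (0.247%), with 51 more positive (0.225%) and 5 more negative (0.0221%) on day 5. These counts depended on the genes in the fit, since with a minimum of 1 CPM in 3 libraries 28 and 3 of these same genes remained. The lane layout also differed between the days, so that day and lane cannot be told apart in these differences. ACC oxidase Aco001358 differed from day 4 in each of the 18 alternatives. Its level was 411 ± 52 CPM with ethephon against 189 ± 84 CPM with water on day 5 and 207 ± 30 CPM with ethephon against 21.8 ± 2.1 CPM with water on day 4, and the log2 fold change was lower by 2.13 on day 5 (difference -2.13 ± 0.288, adjusted p = 0.00015). The AP2/ERTF gene Aco011669 differed from day 4 in the other direction (difference 1.74 ± 0.270, adjusted p = 0.000606), with 127 ± 39 CPM with ethephon against 26.3 ± 2.8 CPM with water on day 5 and 64.7 ± 20 CPM with ethephon against 45.2 ± 4.8 CPM with water on day 4. The group VIIIa genes Aco006567 and Aco010545 had larger effects on day 5 than on either day by log2 differences of 1.92 to 2.09, but these calls were lost in the filtered fit (adjusted p = 0.0843 to 0.28) and with DESeq2 (adjusted p = 0.0643 to 0.267).

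**Figure D5:**
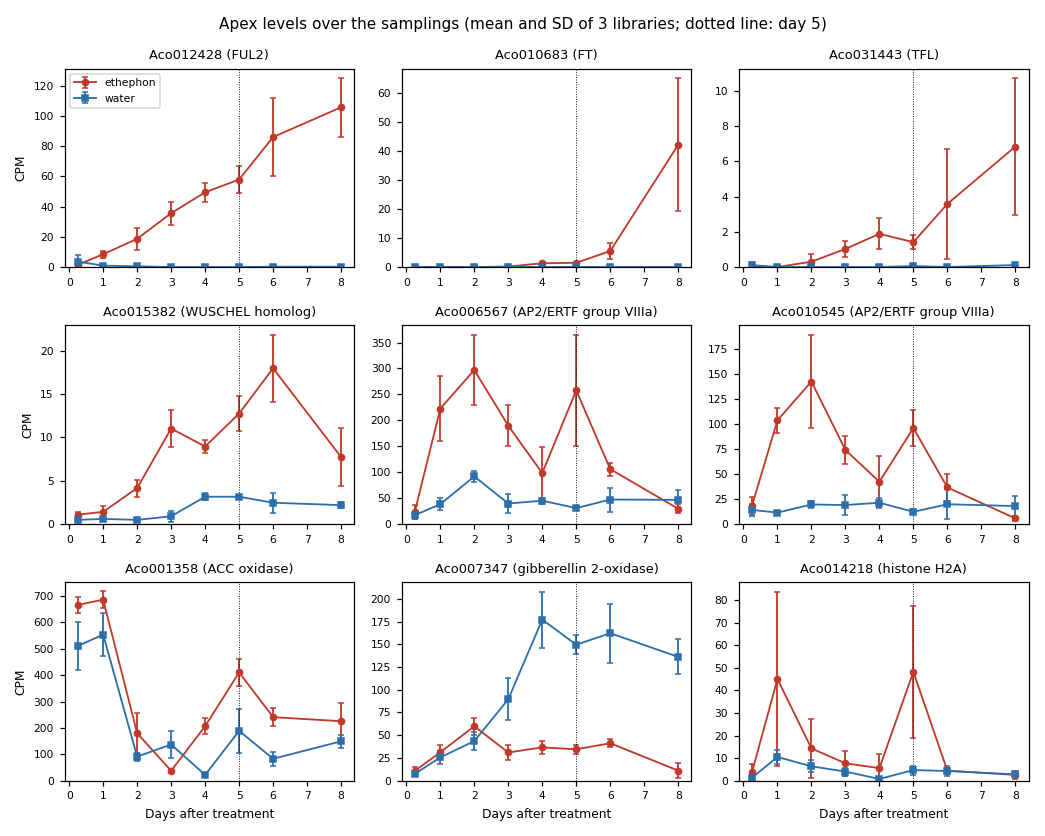
Mean CPM (y axis, error bars SD of 3 libraries) of 9 genes in ethephon and water apices over days after treatment (x axis), with day 5 marked by a dotted line. FUL2 climbs with ethephon through day 8, GA2ox has lower means with ethephon than with water from day 3 on, and the AP2/ERTF genes of group VIIIa have a higher mean with ethephon on day 5 than on days 4 and 6.

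The lane was examined through the water apices. Water apices of day 6, run in the lane of the day 5 ethephon libraries, differed from those of day 5 in 5 of 22012 genes (0.0227%) by edgeR and 18 by DESeq2, and 1985 genes (9.02%) had an unadjusted p under 0.05. Of the 5 genes, 1 was also DE between ethephon and water on day 5. With the day 6 water apices in place of those of day 5, 1284 genes were DE (5.79%), with 837 up-regulated (3.78%) and 447 down-regulated (2.02%). Of the 844 up-regulated and 270 down-regulated genes of day 5, 575 and 170 were also DE in that fit, and 2 were DE the other way. With the day 8 water apices, 1518 genes were DE (6.84%), with 1020 up-regulated (4.59%) and 498 down-regulated (2.24%), and 619 and 173 of the day 5 calls were among them. These fits share the 3 ethephon libraries with the day 5 comparison, and day and lane change together in them.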

How the data were processed

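Per the submitters' processing notes, reads were checked with FastQC 0.10.1, trimmed with Trimmomatic 0.36, aligned with HISAT2 2.0.5 and SAMtools, and counted with featureCounts 1.6.0, against the genome Acomosus_321_v3 named by the study. The authors deposited raw counts per gene for each library, made from unstranded pairs with multi-mapping reads counted, so that overlapping, antisense or near-identical genes can share reads (3167 of 27024 genes have overlapping exons). Groups came from the sample titles and lanes from the file headers.

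The 6 libraries held 5602260 to 10713172 counts. Every gene with a count entered a quasi-likelihood fit with TMM factors (edgeR 4.0.16, limma 3.58.1, R 4.3.3). Interactions of treatment and day were fitted over 12 libraries each. SE is the log2 fold change over the square root of F. CPM used TMM factors over all 78 libraries (prior count 0.25 for log2 CPM), and 3 counts per library served as the floor for genes without a count. Intervals cover counting error only, and with 3 libraries a side an exact test of 1 value cannot give a p under 0.1. P-values measure the spread between the pooled libraries within a group, which in the main comparison shared 1 lane, so that they hold no measure of lane.

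The study divided its plot into 3 field replications that held both treatments, and the main fit did not pair libraries by replicate number. Deviations of same-numbered libraries correlated at 0.015, -0.0002 and 0.075, and those of other pairs at -0.046 to 0.033. Correlations this low cannot settle whether the numbers pair the libraries. Within groups, chi-square per degree of freedom was 3.63 to 12.1, so no library was a repeat of another. The tests were tried on simulated data with 200 changed genes and recovered their folds. This checked the fitting steps alone. It cannot show what lane, an outlying library or low counts did in the real data.

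Members and lists were chosen with earlier results of these data known. Named were each listed gene that was DE, 22 flowering, meristem and ethylene genes in any case, the 6 risen and 6 fallen annotated genes without exon overlap with the smallest adjusted p, and the 2 risen and 2 fallen other genes. Alternatives were DESeq2 1.42.0, edgeR's exact test, RLE factors, a 1 CPM filter, other fold limits, an unadjusted p, a replicate block, a joint fit of 78 libraries, same-lane water apices of days 6 and 8, and each library left out. Added after seeing the data were fits without genes of overlapping exons and without unplaced scaffolds. Tables used pandas 2.3.3 and plots matplotlib 3.10.9.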

Additional observations from a re-analysis of the deposited data

Results flagged for a closer look

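Ethephon effects that differed between day 5 and a neighbouring day in the interaction test are given as the log2 fold change of day 5 minus that of the other day, for the named genes. Most of these genes were named because they were DE on day 5 in the same libraries, a choice that favours larger effects on that day, and 2 of the 22 differences (Aco001358 and Aco011669, both against day 4) kept the call with a minimum of 1 CPM in 3 libraries. With DESeq2, 10 of the 22 lost it. Day and lane change together in these differences.

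Against day 4, the effect on day 5 was more positive for the AP2/ERTF genes Aco006567 (1.94), Aco010545 (1.97), Aco011669 (1.74) and Aco002824 (1.14), for the WRKY gene Aco000358 (1.86), for Aco000669 (ATP binding protein, 1.97) and for the dormancy-associated gene Aco002473 (1.29), which was lower with ethephon on both days. It was more negative for the ACC oxidase Aco001358 (-2.13), for ACS1 (Aco015517, -1.51), for the kinase gene Aco024439 (-1.63), for the OVATE gene Aco011137 (-1.58) and for Aco010978 (-1.43) and Aco002510 (-1.18). ACS1 had a log2 fold change of -0.07 on day 5 and 1.44 on day 4, from group means of 166 CPM with ethephon and 174 CPM with water on day 5 and of 57.9 CPM with ethephon and 22.1 CPM with water on day 4.

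Against day 6, the effect on day 5 was more positive for the H2A gene Aco014218 (3.28), the group VIIIa genes Aco010545 (2.09) and Aco006567 (1.92), the trehalose phosphate synthase gene Aco012107 (1.63), the zinc finger gene Aco000783 (1.48), the kinase gene Aco009459 (1.42) and Aco002824 (1.12). It was more negative for the gibberellin-regulated genes Aco025093 (-1.36) and Aco000979 (-1.18), whose log2 fold changes were 1.23 and 1.40 on day 5 and 2.59 and 2.57 on day 6.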

How the results depend on the processing

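The 1114 DE genes became 306 (267 up-regulated, 39 down-regulated) above a log2 fold change of 2 and 3489 (2155 and 1334) with no fold limit. Down-regulated genes numbered 483 at an unadjusted p, and 447 and 498 with the water apices of day 6 and day 8. Leaving out 1 library gave 833 to 1193 DE genes, with 644 to 896 up-regulated and 189 to 297 down-regulated, and 539 genes were DE in all 6 of these fits. The 72 DE listed genes became 24 above a log2 fold change of 2 and 113 with no fold limit, and 55 to 70 with a library left out. The interaction with day 4 had 140 calls, 28 with the 1 CPM filter and 29 above a log2 fold change of 2, and 61 (without water day 5 library 2) to 294 (without water day 5 library 1) with a library left out; that with day 6 had 56 calls, 3 with the filter and 22 above a log2 fold change of 2, and 25 (without ethephon day 6 library 2) to 135 (without water day 6 library 1). The water apices of day 6 against day 5 gave 18 calls with DESeq2 and 0 to 28 with a library left out. The cause of these differences was not tested. As a replicate block, the replicate number gave 1078 calls, and 193 and 62 for the interactions. Whether the numbers pair the libraries is not settled. DESeq2 called 923 genes. Of the 87 DE named genes, 46 kept the call under every alternative but the stricter fold limit, 57 kept it in both same-lane fits, 8 lost it with DESeq2, and 9 to 18 lost it with 1 library left out. No DE named gene changed sign under the alternatives run. Among those not DE, ACS1 (Aco015517) did in 3 of them and ACS2 (Aco000276) in 1, and 2 of the 1114 DE genes were DE the other way with day 6 water. With a prior count of 2, the mean log2 CPM of FT Aco010683 in water apices was -1.41, which moves with the prior alone. Genes of few counts, such as FT, TFL and SEP4, are limited by depth.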
